A study of Mus musculus with 8 samples.

Results

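The AP-1 family genes considered here were Fos, Fosb, Fosl1, Fosl2, Jun, Junb, Jund, Batf and Atf3, 9 of the 21938 protein-coding genes of the GENCODE M21 annotation on the chromosomes analysed. They were chosen by name, as members of the family, and their chromatin was described through the ATAC-seq regions that overlapped the gene body or the 20 kb on either side of it (mm10). This selected 69 of the 57124 accessible regions of the data set. The rule for the genes and their regions uses names and positions, and no measured value.

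AP-1 is a transcription factor formed by a pair of basic leucine zipper proteins. The JUN proteins (Jun, Junb and Jund) can pair with each other, whereas the FOS proteins (Fos, Fosb, Fosl1 and Fosl2) need a JUN partner. Batf and Atf3 are related zipper proteins that also pair with JUN, and Batf is best known from lymphocytes, where it acts together with IRF factors. AP-1 binds the TRE, with the letters TGANTCA, and binds the CRE, TGACGTCA, when paired with ATF proteins. Several AP-1 genes, Fos, Fosb, Junb and Atf3 among them, belong to the immediate early genes, which are induced within minutes by growth factors or stress. For Fos, serum response factor (Srf) acts through a CArG box upstream of the gene, and CREB acts through CRE-type sites. In epithelia such as the epidermis, AP-1 takes part in the control of differentiation genes.

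Medullary thymic epithelial cells (mTECs), which present tissue-restricted self-antigens to developing T cells, were sorted by FACS from the thymus of wild-type BL6N6 mice of 4 to 6 weeks of age. The cells were CD45neg, EpCAMpos and CDR1neg. They comprised 4 groups of 2 biological replicates, namely Tspan8neg MHCIIlow, Tspan8pos MHCIIlow, Tspan8neg MHCIIhigh and Tspan8pos MHCIIhigh, so 8 samples in all. MHCII rises as mTECs mature and falls again in late stages, so that MHCIIlow cells can be early or late, and Tspan8 marks cells that express a subset of self-antigens. ATAC-seq uses the Tn5 transposase to cut and tag open chromatin. The regions were merged over the data set and belong to no single sample. The read counts that accompany them carry column names that match none of the samples and were not used, so that the levels of accessibility, the depth of each sample and the differences between the 4 groups are not analysed here. What follows describes where the regions lay, how wide they were and which sequence they held. Positions are counted from the first base of the gene in GENCODE, with negative values upstream. For every one of the 8 marker genes of mTECs and epithelium examined, such as Epcam, Krt5, Aire and H2-Ab1, a region lay at the promoter. The corresponding counts were 0 of 6 for thymocytes (such as Cd3e and Rag1), 0 of 3 for B cells, 0 of 3 for myeloid cells and 0 of 2 for endothelium. Of 2 fibroblast markers, Pdgfra had a promoter region of 603 bases and Col1a1 had none.

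The sequences below show the accessible sites to which the results refer. They were read from the GRCm38 genome, the assembly behind mm10, on the strand of the gene. The first group holds 5 of the 6 CArG boxes in the windows of Fos, Fosb and Junb, without the one at the promoter of the neighbouring gene Hook2, each with 25 bases on either side, and capitals mark the CArG box and the CRE core TGACG on either strand.
Fos promoter, chr12:85473556-85473615, plus strand: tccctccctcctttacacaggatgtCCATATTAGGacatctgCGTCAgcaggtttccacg
Fosb promoter, chr7:19310283-19310342, minus strand: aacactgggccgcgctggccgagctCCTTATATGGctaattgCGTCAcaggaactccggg
Junb distal promoter region, chr8:84980134-84980193, minus strand: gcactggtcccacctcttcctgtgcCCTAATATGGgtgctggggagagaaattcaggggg
Junb region past the coding transcript, chr8:84976599-84976658, minus strand: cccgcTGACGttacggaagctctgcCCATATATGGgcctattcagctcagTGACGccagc
Fos downstream region, chr12:85486089-85486148, plus strand: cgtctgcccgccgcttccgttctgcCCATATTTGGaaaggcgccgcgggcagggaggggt

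The second group holds TRE matches outside promoters, in capitals, and the CRE of Jund. It shows matches to the letters that AP-1 binds, near its own genes. Binding at these sites was not measured.
Junb upstream region, chr8:84985642-84985772, minus strand: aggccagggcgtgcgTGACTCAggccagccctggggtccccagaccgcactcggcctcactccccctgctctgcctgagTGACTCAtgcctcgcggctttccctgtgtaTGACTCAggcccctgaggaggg
Fosb upstream region, chr7:19316914-19317042, minus strand: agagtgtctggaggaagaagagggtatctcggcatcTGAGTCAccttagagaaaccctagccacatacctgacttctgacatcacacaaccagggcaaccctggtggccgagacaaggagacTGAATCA
Fosl1 intron, chr19:5448830-5448886, plus strand: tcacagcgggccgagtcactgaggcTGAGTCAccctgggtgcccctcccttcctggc
Atf3 intron, chr1:191190023-191190079, minus strand: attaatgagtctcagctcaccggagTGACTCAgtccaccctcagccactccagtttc
Jund promoter, chr8:70698724-70698753, plus strand: ccccacccccaTGACGTCAacccacaatgc

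The third group holds the 120 bases just before the start of Fos, Jun and Junb, which lay in a promoter region, and of Batf, which did not. These stretches come from the RefSeq promoter sequences (GRCm38) and end at the earlier of the GENCODE and RefSeq starts. On either strand, capitals mark the TATA box with the letters TATAAA, the CCAAT box, the GC box with the letters GGGCGG, the CRE core TGACG and the letters TGACATCA.
Fos, chr12:85473770-85473889, plus strand: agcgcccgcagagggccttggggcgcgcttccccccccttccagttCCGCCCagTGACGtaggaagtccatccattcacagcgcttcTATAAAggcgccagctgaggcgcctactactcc
Jun, chr4:95052223-95052342, minus strand: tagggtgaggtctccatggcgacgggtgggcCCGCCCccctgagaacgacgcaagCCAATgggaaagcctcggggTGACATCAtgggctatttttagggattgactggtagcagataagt
Junb, chr8:84978749-84978868, minus strand: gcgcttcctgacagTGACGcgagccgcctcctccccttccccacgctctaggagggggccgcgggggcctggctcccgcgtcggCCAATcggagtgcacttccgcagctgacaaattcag
Batf, chr12:85686549-85686668, plus strand: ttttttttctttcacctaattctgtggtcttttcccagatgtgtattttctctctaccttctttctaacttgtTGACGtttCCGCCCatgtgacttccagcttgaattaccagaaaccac

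Next, the promoters were examined. A promoter region was a region that shared at least 1 base with the stretch that begins 1000 bases before a transcription start of the gene and ends 100 bases after it. Of the 9 AP-1 genes, 8 had such a region (88.9%, 95% Wilson interval 56.5 to 98.0). Among all protein-coding genes the share was 60.7%. Batf was the gene without one. The interval covers counting error over the genes only. The 8 genes had 9 promoter regions, since Junb had a pair of them, and 8 of the 9 regions covered an annotated start.

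The FOS genes all had a region over their start. At Fos the region measured 878 bases (chr12:85473442-85474319, from -448 to +429), and 84.4% of the 13457 promoter regions of protein-coding genes were narrower. At Fosl2, which encodes FRA2, it measured 1034 bases (chr5:32134999-32136032, from -802 to +231), with 92.1% narrower. The regions of the other FOS genes were of ordinary width. That of Fosb measured 546 bases (chr7:19309989-19310534), with 49.8% narrower. That of Fosl1, which encodes FRA1, measured 499 bases (chr19:5447499-5447997) with 43.3% narrower. It lay mainly past the GENCODE start, from -48 to +450, over the beginning of the gene. The RefSeq start of Fosl1 lies at +151, inside this region.

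The JUN genes differed in the width of their promoter regions. Jun had the widest of the family with 1097 bases (chr4:95051769-95052865, from -643 to +453), and 94.1% of all promoter regions of protein-coding genes were narrower. Jund had a region of 978 bases (chr8:70698347-70699324), with 89.9% narrower. At Junb a region of 454 bases covered the start (chr8:84978504-84978957, 36.9% narrower) and a wider one of 831 bases lay 704 bases further upstream (chr8:84979662-84980492, 80.9% narrower). The upstream region of Junb counted as a promoter region through 57 bases of overlap, and its centre was at -1359.

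Atf3 and Batf differed from these genes in the position of their open chromatin. Atf3 has a pair of annotated starts, and its promoter region of 793 bases (chr1:191183050-191183842, 77.9% narrower) lay at the downstream start, which is also the start given by RefSeq. No region lay at the upstream start of Atf3, where the nearest was a region of 563 bases in the intron, centred at +1786. At Batf the nearest region lay 16335 bases from the start. The stretch from -1000 to +100 of Batf had a GC content of 49.7% and an observed-to-expected CpG ratio of 0.354, where a value of 1 means as many CpG pairs as the base composition gives. Both lay between the medians of the 13308 genes with a promoter region (51.3% and 0.556) and of the 8630 genes without one (44.4% and 0.174). The CpG ratio of Batf lay below the lower quartile of the genes with a promoter region (0.391) and above the upper quartile of those without (0.279).

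Over the 9 regions the median width was 831 bases (quartiles 546 and 978, 95% order-statistic interval of the median 499 to 1034, n = 9 regions), beside a median of 547 bases (quartiles 360 and 762) for the promoter regions of all protein-coding genes. Base composition differed little. The median GC content was 65.6% for the AP-1 promoter regions and 65.8% for all, and the median CpG ratio was 0.778 and 0.794. The width of a merged region is not a level of accessibility.

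**Figure D1:**
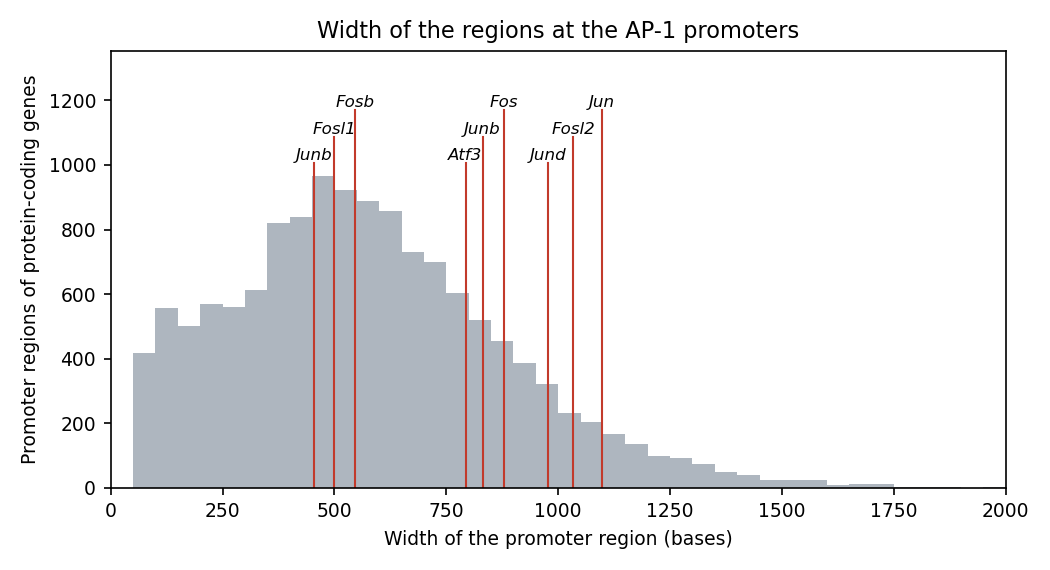
Distribution of the width of promoter regions, with the number of promoter regions of protein-coding genes in each bin of 50 bases on the y axis and the width in bases on the x axis. Red lines mark the 9 AP-1 promoter regions, of which Jun (1097 bases), Fosl2 (1034 bases) and Jund (978 bases) sit on the right shoulder. Fosl1, Fosb and the Junb region over the start (454 bases) sit near the peak, and the distal Junb region (831 bases) lies to the right of it. The plot leaves out 9 regions wider than 2000 bases.

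Next, the surroundings of the genes were described. The number of regions within 20 kb ranged from 3 for Jun to 15 for Fosb, whereas the median protein-coding gene had 3 (quartiles 1 and 5). For 8 of the 9 genes the number was above that median. Because a long gene has a wide window, the number was also divided by the length of the window. On this scale Fosb had 3.17 regions per 10 kb, Junb 2.49, Fosl1 1.86, Fos 1.38, Jund 1.20 and Atf3 1.14. Fosl2 followed with 0.967, Jun with 0.695 and Batf with 0.641. All were above the median of 0.386 and, but for Batf, above the upper quartile of 0.688. Fosb and Junb stood at percentiles 100 (rounded) and 99.9 of all protein-coding genes, and Batf at 71.4.

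**Figure D2:**
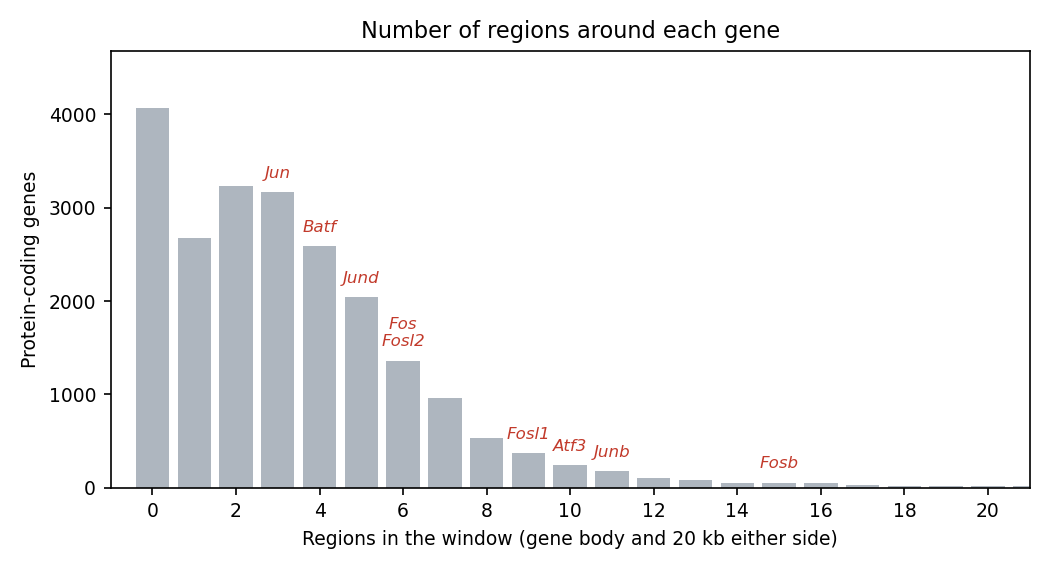
Number of protein-coding genes (y axis) by the number of regions in the gene body and the 20 kb on either side (x axis). The AP-1 genes are written above the bar of their own count, from Jun at 3 to Fosb at 15, and 87 genes with more than 20 regions are outside the plot.

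Part of these regions belonged to other genes. Of the 60 regions outside the AP-1 promoters, 13 lay at the promoter of a neighbouring gene and 47 at no promoter. Around Junb, 5 of 11 regions lay at the promoters of Hook2, Prdx2, Rnaseh2a and Gm49661. Around Fosl1, 4 of 9 lay at the promoters of Ccdc85b, Fibp and Efemp2. The remaining cases were Rtn2 and Gm26802 beside Fosb, Gm3336 beside Jund and D730003I15Rik beside Atf3. Fos, Fosl2, Jun and Batf had none. By distance, 50 of the 69 regions were nearest to the start of the AP-1 gene and 19 to that of another protein-coding gene, which does not tell which gene a region serves.

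**Figure D3:**
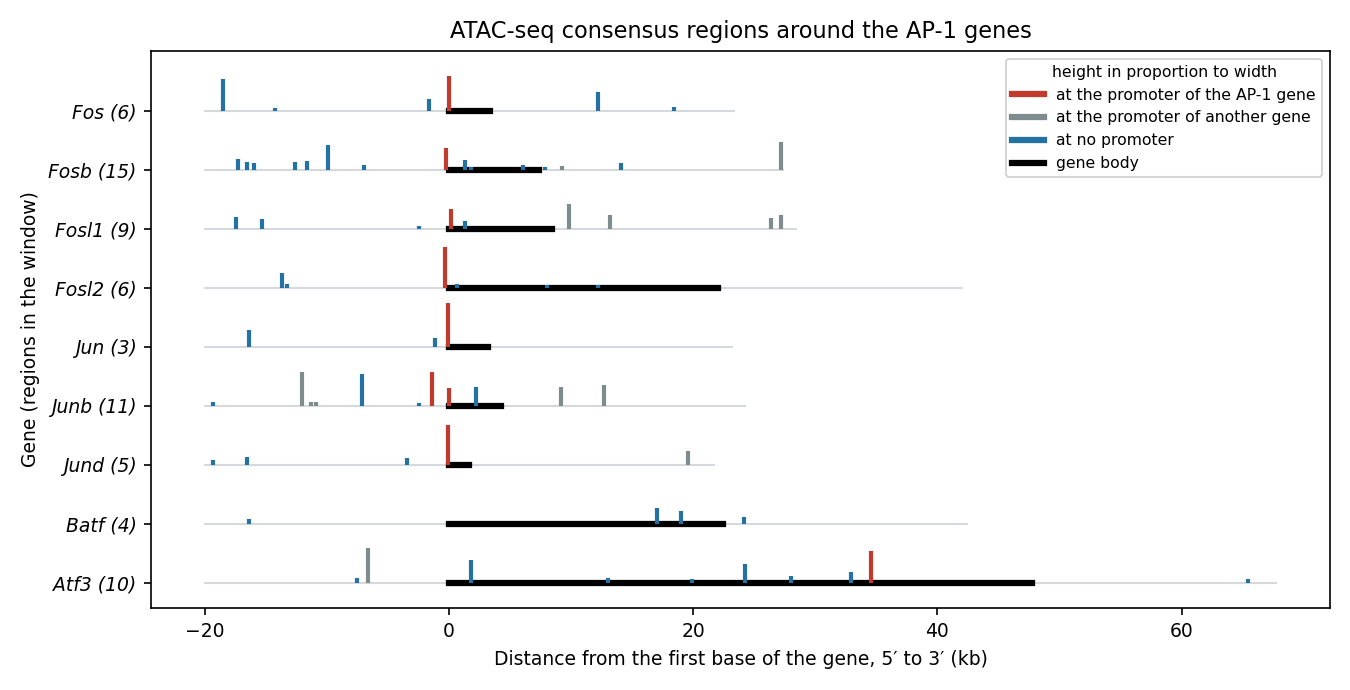
Map of the 69 regions, one row per gene, with the distance from the first base of the gene in kb on the x axis. Each vertical line is a region with its height in proportion to its width, the black bar is the gene body and the grey line the window, and Batf is the row with no red line, the colour of a promoter region of the AP-1 gene.

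Of the 47 regions at no promoter, 25 lay upstream of the gene, 15 within its basic transcripts and 7 past their end. One of these 7, at Junb, lay past the coding transcript but still inside the longer gene record of GENCODE. With all GENCODE transcripts in place of the basic ones, this Junb region also counted as a promoter region. Most of the 47 were small, with a median width of 174 bases (quartiles 98.5 and 300). This was close to the median of 168 bases (quartiles 106 and 283) of the 43667 regions outside protein-coding promoters. Only 8 of the 47 reached 400 bases. The widest were a region of 803 bases upstream of Fos, centred at -18518 (chr12:85454971-85455773), and one of equal width upstream of Junb, centred at -7143 (chr8:84985460-84986262). Of all regions outside protein-coding promoters, 98.9% were narrower than these. The median GC content of the 47 regions was 58.6%, beside 51.6% for regions outside protein-coding promoters in general, and the median CpG ratio was 0.377 beside 0.244.

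The FOS genes differed in where their other regions lay. Fos had 3 regions upstream and 2 downstream, with the downstream one of 490 bases centred at +12218 (chr12:85485864-85486353). Of the upstream regions one of 73 bases was 82.2% repeat sequence, the only region of the 69 with more than 50% repeat. Fosb had 7 regions upstream, between -17256 and -6927, of which the widest measured 620 bases (centred at -9926, chr7:19319667-19320286). Of these 7, 6 overlapped the transcript D830036C21Rik. Fosl1 had an intronic region of 214 bases (chr19:5448724-5448937) and 3 upstream regions, the widest of 290 bases, centred at -17458. At Fosl2 the widest region away from the promoter measured 375 bases and was centred at -13652. The 3 regions inside the gene measured 76 to 94 bases. The one of 94 bases (chr5:32136412-32136505) covered the RefSeq start of Fosl2, which lies 671 bases past the GENCODE start.

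Among the JUN genes, Jun had only a region of 217 bases directly upstream of its promoter region, 358 bases from it, and one of 432 bases centred at -16410 (chr4:95068417-95068848). All 3 regions of Jun lay within Junos, an antisense transcript. At Junb a region of 469 bases (chr8:84976258-84976726) began 183 bases past the end of the coding transcript, which is a single exon of 1809 bases. At Jund the regions away from the promoter measured 115 to 336 bases. The Jund promoter region overlapped the antisense gene Gm11175, and chromatin openness does not tell the strands apart.

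Batf had 4 regions, all at a distance from its start. The widest measured 392 bases (chr12:85703517-85703908) and lay in the intron at +17044, and another of 313 bases lay at +19035. At Atf3 the widest regions away from a promoter measured 563 bases (chr1:191215972-191216534) and 466 bases (chr1:191193592-191194057), both in introns. A wider one of 860 bases at -6642 lay at the promoter of the non-coding gene D730003I15Rik.

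The regions were then searched for the binding letters of AP-1 itself. A TRE match was found in 15 of the 69 regions (21.7%, 95% Wilson interval 13.6 to 32.8). Among all 57124 regions the share was 21.3%, and among regions within 10% of the same widths 20.7%. The share in the AP-1 windows was therefore near the background. The full CRE was found in 1 of the 69 regions, the promoter region of Jund, against 1.68% of all regions. The Jund CRE lay at -214 to -207.

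Fosl1 (at +350 to +356) and Fosl2 (at +53 to +59) had a TRE in their promoter region, 2 of 9 genes, beside 6.24% of all protein-coding genes. Both sites lay past the GENCODE start. The RefSeq start lies 151 bases past it for Fosl1 and 671 bases past it for Fosl2. The Fosl2 site was therefore upstream of its RefSeq start. Promoter regions of the same widths held a TRE in 11.1% of cases. The RefSeq promoters reach from 250 bases before to 50 bases after the start. Of the 8 AP-1 promoters among them (all but Fosl1), 0 had a TRE, beside 6.99% of 21237 promoters. Neither the Fosl1 nor the Fosl2 site could count here, since Fosl1 was absent and the Fosl2 site lay further than 250 bases before its RefSeq start.

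At no promoter, 12 of the 47 regions held a TRE (25.5%), beside 24.9% of regions outside protein-coding promoters. The upstream region of Junb printed above held 3, at -7039, -6975 and -6945, all with the letters TGACTCA and all within 101 bases. Of the 2282 regions within 10% of its width, 1.01% held as many. The centre of this Junb region lay nearer to the start of Hook2, 4742 bases away, than to that of Junb. The small Fosb region at -6927 held 2, against 1.43% of the regions of its width. A pair was also present in the upstream region of Fosl1 at -17458 (5.16% of regions of that width). Another pair lay in the Atf3 intronic region of 466 bases (6.62%). The regions with several matches were named as those with the most in their window, so these shares describe picked regions. Single matches lay in the Fosl1 intron at +1308, in the regions of Jund at -19332 and -16542, in the Fosb regions at -17256 and -11608, in a Fosl1 region at -15316 and in 2 further intronic regions of Atf3. The Atf3 window held one more in the region at the promoter of D730003I15Rik. A TRE was in 4 of the 10 regions of Atf3 and 4 of the 9 of Fosl1, beside 21.3% of all regions. It was in 0 of the 6 regions of Fos, 0 of the 3 of Jun and 0 of the 4 of Batf. So few regions per gene cannot tell these genes apart.

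**Figure D4:**
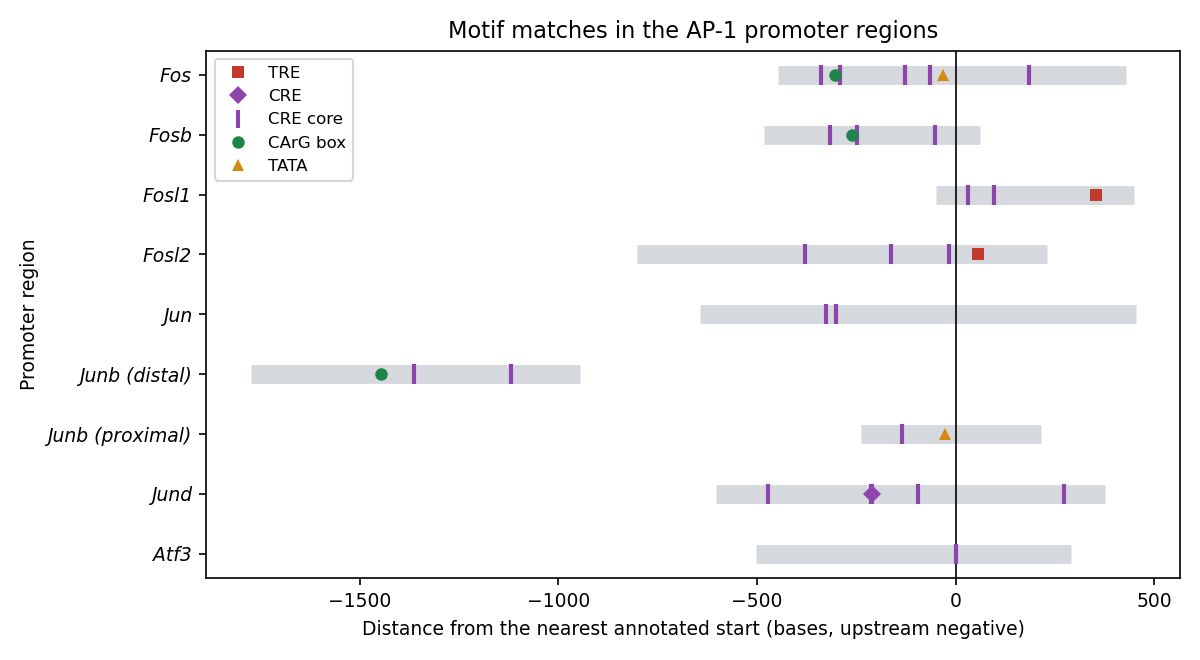
Motif matches in the 9 AP-1 promoter regions, with the distance from the nearest annotated start in bases on the x axis and one grey bar per region. Squares mark the TRE (Fosl1 and Fosl2), circles the CArG box (Fos, Fosb and the distal region of Junb), the diamond the CRE of Jund, triangles TATAAA (Fos and Junb) and ticks the CRE core, which is present in every bar.

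The CArG box, a search added to the planned ones for the TRE and the CRE, was present in 6 of the 69 regions (8.70%, 95% Wilson interval 4.05 to 17.7), beside 1.35% of all regions and 1.48% of regions of the same widths. It lay in a promoter region of 3 of the 9 genes, Fos (-309 to -300), Fosb (-266 to -257) and Junb (-1450 to -1441), beside 1.13% of all protein-coding genes. The Junb box itself lay outside the stretch from -1000 to +100. Its region counted as a promoter region through 57 bases of overlap and did not cover the start. The other 3 were the region downstream of Fos at +12224, the one past the coding transcript of Junb at +2085 and the promoter region of Hook2, at -11675 from Junb. The 6 regions lay in the windows of 3 of the AP-1 genes, and neighbouring regions of one window are not independent. Of all promoter regions of protein-coding genes, 1.7% held a CArG box, and 2.26% of those of the same widths. No test was made of these shares, which are a description.

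The CArG boxes of Fos and Fosb had a CRE core at the same distance. In both promoters a CRE core, read on the opposite strand, followed the box after 7 bases, as the sequences above show. The nearest core lay 15 bases away in the region past the coding transcript of Junb and 23 bases away in that downstream of Fos, where the core reaches past the printed stretch. At the distal promoter region of Junb it lay 74 bases away, and the Hook2 region had none. A CRE core within 25 bases of a CArG box was thus present in 4 of the 6 regions. Of all 769 regions with a CArG box, 5.85% had one. This pairing was looked for after the sequences had been seen.

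The CRE core TGACG, which forms one side of the CRE, occurred in all 9 AP-1 promoter regions (95% Wilson interval 70.1 to 100), beside 46.5% of all promoter regions of protein-coding genes and 59.1% of those of the same widths. Junb gave 2 of these 9 regions. Like the search for the CArG box, this one was added to the planned searches. Fos had 5 matches in its promoter region, among them one at -66 to -62, between a GC box and the TATAAA at -33 to -28. Jund also had 5, of which 2 were the overlapping sides of its CRE. Jun had 2, at -327 and -303. In addition, Jun had the letters TGACATCA at -45 to -38, which resemble the CRE and are known as an AP-1 site of this gene. These letters occurred in 1.98% of all promoter regions of protein-coding genes and in 3.67% of the RefSeq promoters. They were added to the search after the sequence of Jun had been seen.

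Batf, the gene with no promoter region, was not devoid of such letters. Its RefSeq promoter had a CRE core at -98 to -94 and a GC box at -90 to -85, counted from the RefSeq start. In all, 5 of the 8 RefSeq promoters had a CRE core (Fos, Fosb, Junb, Atf3 and Batf) beside 23.6% of all. TATAAA was present for Fos and Junb, beside 12.6%. At Junb it lay at -30 to -25 from the GENCODE start, and the RefSeq start of Junb is placed at the first base of these letters.

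Further, 2 GC-rich motifs, also outside the planned searches, were counted. The GC box was found in 42.0% of the 69 regions (95% Wilson interval 31.1 to 53.8) beside 33.2% of regions of the same widths. In the AP-1 promoter regions its share was 88.9%, beside 92.1% of promoter regions of the same widths. At no promoter it was 25.5%, beside 13.6%. The letters GGGNGTGG, which Krüppel-like factors bind, were found in 29.0% (19.6 to 40.6) beside 18.9%. Their share was 66.7% beside 46.5% in the promoter regions and 21.3% beside 11.3% at no promoter. Of the 8 RefSeq promoters of AP-1 genes, 0 held these letters, beside 19.4% of all. A GC box was in 6 of the 8, beside 46.2%. The AP-1 regions at no promoter had a higher median GC content than regions outside protein-coding promoters in general, as given above, and the part of base composition in these shares was not tested.

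**Figure D5:**
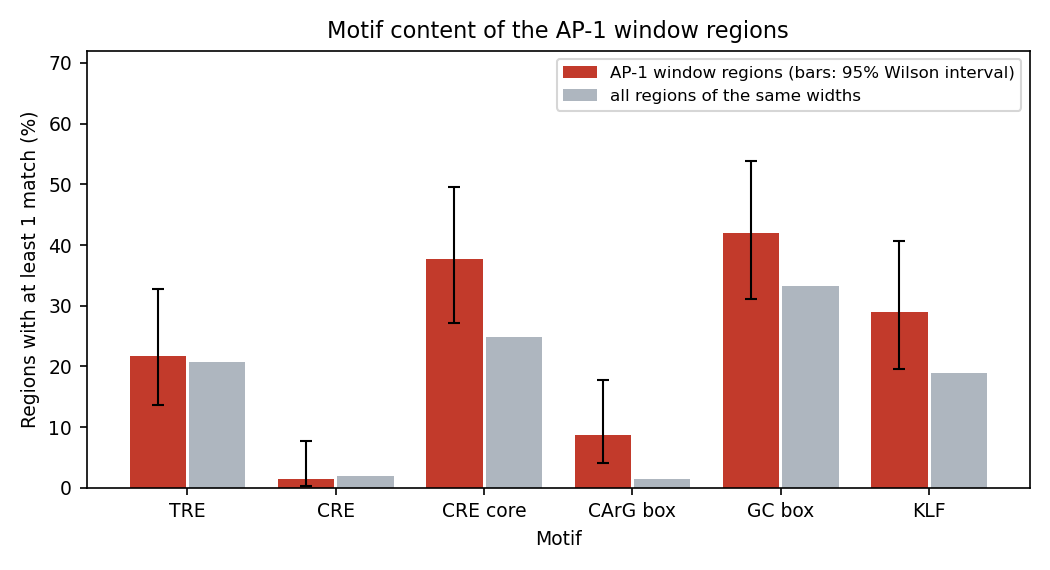
Share of regions with at least 1 match, in percent, for 6 motifs. Red bars are the 69 AP-1 window regions with 95% Wilson intervals and grey bars all regions within 10% of the same widths, with the TRE at 21.7% and 20.7% and the CArG box at 8.70% and 1.48%.

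Finally, the genes around AP-1 in its pathway were examined in the same way. In each of 3 lists every gene had a promoter region, beside 60.7% of all protein-coding genes. The lists were chosen with earlier results of these data known, so these shares are a description only. Of the 15 partners and relatives of AP-1, 15 had a promoter region, and the widest of each gene had a median of 841 bases. Nfe2l2, the oxidative stress factor NRF2, had 1573 bases and Bach2, a repressor of TRE-type sites, 1519 bases, while Batf2 had only 93 bases. Batf3, another member of the BATF group, had 631 bases. Bach2, a long gene, had 25 regions in its window.

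The 15 genes for kinases and factors upstream of AP-1 likewise all had a promoter region (median 772 bases). Among them, Map3k1, a kinase of the JNK pathway, had 1708 bases, Mapk8, which encodes JNK1, 850 bases and Dusp1, a phosphatase that turns these kinases off, 1176 bases. Srf, whose product binds the CArG box, had 703 bases and was the only gene of this list with a CArG box in its promoter region. Elk3 had the narrowest with 276 bases.

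Of the 14 immediate early genes outside AP-1, 14 had a promoter region (median 618 bases). Egr1, a zinc finger factor induced together with Fos, had 1728 bases, whereas Ier2 had 210 bases. A CArG box was present in a promoter region of 4 of the 14 genes (Egr1, Egr2, Egr3 and Zfp36), while 0 of the 15 partners and relatives had one. The share over all protein-coding genes was 1.13%, as given above. A TRE was present in a promoter region of 1 of the 14 immediate early genes and 0 of the 15 upstream genes. It was present for 4 of the 15 partners and relatives and 5 of the 8 mTEC and epithelial markers. The share over all protein-coding genes was 6.24%. The shares of 6.24% and 1.13% include genes without a promoter region, which cannot hold a match there, whereas every listed gene had one. Of all promoter regions of protein-coding genes, 9.68% held a TRE and 1.7% a CArG box.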

How the data were processed

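ATAC-seq was measured in 8 samples of sorted mTECs, in 4 groups of 2. The authors aligned reads to mm10 with Bowtie2, removed mitochondrial, multimapping and low-quality reads (SAMtools) and duplicates (Picard), and ran MACS2 in broad mode. The resulting peaks were joined by bedtools merge into consensus regions, for which reads were counted with featureCounts 2.0.3 per the file headers. The sources used here do not say if peaks were called sample by sample or after pooling. Broad calling and merging widen regions, and the removal of multimapping reads lowers their number in repeats. Of the deposited values, the start, end and length in bases of each region were used, which belong to all samples together. The 8 count columns match no sample label and were not used, so no depth, level or difference between groups was computed.

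The AP-1 genes and all lists were chosen with earlier results of these data known. Regions overlapping a gene body and 20 kb either side (GENCODE M21) were taken by at least 1 base. A promoter region overlapped -1000 to +100 of the start of a basic transcript. The genes named were the 9 genes, with the promoter regions of each window, the widest region outside promoters and that with most AP-1 motifs, and genes whose promoter lay in a window. Other regions and genes were named after their values were seen. Motifs were exact matches on both strands of GRCm38, in which 0 chromosomes had a region past their end. Only the searches for the TRE and the CRE were planned, and those for all other motifs were added. A CArG box was the pair CC, 6 bases of A or T, and GG. RefSeq promoters matched 8 of the 9 genes. Search and overlap functions recovered all planted sites in simulated data. The intervals hold counting error alone, since neither regions nor genes are replicates. Alternatives covered the flank, the promoter rule, the annotation, the width of regions and the motif. The software was Python 3.11.15 with pandas 2.3.3, numpy 2.4.6, matplotlib 3.10.9 and scipy 1.17.1.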

Additional observations from a re-analysis of the deposited data

How the results depend on the processing

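The number of regions in the windows depended on the flank. It was 69 with 20 kb, 44 with 10 kb and 116 with 50 kb, and 41 of the 69 measured at least 200 bases. With whole regions inside the window it was 68. The number of AP-1 genes with a promoter region was 8 under 3 of the alternatives and 7 when the centre of the region had to lie within -1000 to +100, which left out Fosl1. RefSeq starts, an alternative chosen after seeing the data, also gave 7. They left out Jund, whose RefSeq start lies at -1210 from the GENCODE start and 608 bases from the nearest region. With all GENCODE transcripts Junb had 3 promoter regions, since the region past its coding transcript counted as well. The median width of the promoter regions was 812 to 878 bases in place of 831. The number of window regions with a TRE or CRE was 16, and 11 to 15 under the alternatives. No paired analysis was possible because none of the columns of counts could be tied to a sample or replicate. For the same reason the planned comparison of counts between groups and its alternatives (DESeq2 size factors, no filter on low counts, a replicate block, leaving out each replicate) were not run. The depth of the samples sets which regions were called and is not known here.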
